A study of Mus musculus with 6 samples.

Results

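Mitochondrial ribosomal proteins are the nuclear-encoded proteins of the ribosome that works inside mitochondria. Here they are the protein coding genes of the deposited table whose name starts with Mrpl or Mrps followed by a digit, which gave 78 genes, 49 named Mrpl for the large subunit and 29 named Mrps for the small subunit, of 32285 genes in all and 21633 protein coding ones. Their messenger RNA was measured by bulk sequencing in wild-type (WT) mouse radial glial progenitors, the dividing stem cells of the embryonic cortex, taken at E10.5. Dissociated neocortical cells were cultured for about 24 h with GSK2837808A, an inhibitor of lactate dehydrogenase (called GSK here), or with its solvent DMSO. About 1000 CD133-positive, DAPI-negative cells were then sorted per library for Smart-seq2, and each group held 3 libraries. Both groups share the genotype, stage, culture and sort. The inhibitor dose is labelled 100 mM, a value that was not verified and is high for a culture medium. Whether a group's libraries stem from different animals or cultures is not labelled, so p-values here measure the spread between these libraries, which may be technical.

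The mitochondrial ribosome translates the messenger RNAs of the 13 protein coding genes of the mitochondrial genome, all of which encode subunits of oxidative phosphorylation. Its ribosomal RNAs are transcribed inside the organelle, whereas its proteins are encoded in the nucleus, made in the cytosol and imported. Compared with its bacterial relatives the mammalian particle has lost ribosomal RNA and gained many proteins that bacteria lack. Neural progenitors depend heavily on glycolysis early in cortical development and shift toward oxidative phosphorylation as neurons form.

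The libraries held 7187089 to 10224348 reads, recovered as whole reads from the normalised values, and the totals of the groups overlapped (p = 0.8 in a two-sided exact permutation test, which cannot go below 0.1 with 3 libraries a group). GSK library 1 had the fewest reads and the most genes with a read (25585). Of 10 radial glial markers 8 fell and none rose, and Prom1, the gene of the sorted marker CD133, fell from 1223, 1226 and 1099 normalised reads in DMSO libraries 1 to 3 to 693, 577 and 502 in GSK libraries 1 to 3. Of 6 intermediate progenitor markers 4 rose, and of 9 neuronal markers 3 rose and 1 fell. Of 11 tested erythroid markers 10 rose, and their summed level ran from 2420 to 20683 normalised reads in DMSO and from 184196 to 274566 in GSK libraries. Hba-a2 was at 0 in at least 1 library, and no erythroid marker was at 0 in all DMSO libraries. Microglia and macrophage markers (7 of 11 higher) summed to 99.7 to 399 in DMSO and 690 to 1622 in GSK libraries, with C1qb at 0 in at least 1 library. None of 4 tested endothelial markers passed, and 2 of 7 tested pericyte and mesenchyme markers fell. The pericyte and mesenchyme markers summed to 26660 to 33643 in DMSO and 16387 to 25578 in GSK libraries. The radial glial markers summed to less, 20447 to 21089 in DMSO and 10942 to 13568 in GSK libraries. Some of the counts of markers that rose or fell turn on single libraries. The erythroid rises numbered 5 without DMSO library 1, 5 without GSK 1 and 4 without GSK 2 or GSK 3. The neuronal rises numbered 6 without DMSO 2 and 2 without GSK 1, and the pericyte and mesenchyme falls 1 without DMSO 3 and 4 without GSK 1. The radial glial falls numbered 8 without any 1 library. The part of these other cells in the results below was not tested. In bulk samples fewer cells of a type and less RNA per cell cannot be told apart.

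All 78 genes were well above the filter on low values, a mean of 10 normalised reads. Their means over the 6 libraries ran from 189 for Mrpl55 to 1023 for Mrpl47, with a median of 431, and the lowest single value rested on 113 reads. Per kilobase of exon, the highest level in DMSO was that of Mrpl28 (818 ± 56.7 normalised reads per kb, mean ± SD, n = 3) and the lowest that of Mrpl33 (44.4 ± 3.85), with a median of 195 over the members. Among the Mrps genes these were Mrps21 (452 ± 40.2) and Mrps10 (44.9 ± 1.83). That length joins the exons of all annotated transcripts, so genes with long rare isoforms, such as Mrpl33 with 7326 bp, read low on this scale. Replicates were tight in DMSO, with a median coefficient of variation of 8.17% over the members, against 17.4% in GSK libraries. Over all 15073 genes tested these medians were 11.7% and 14.8%.

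Inhibitor and solvent libraries differed for a minority of the 78 genes. With limma on log2(value + 1) and Benjamini-Hochberg adjustment over all genes tested, 16 fell, 2 rose and 60 did not pass at an adjusted p below 0.05. The 18 called members are 23.1% of the set, below the 36.1% called among all genes tested (19.1% lower and 17.0% higher). By direction, 16 falls of 78 is near the share that fell among all genes tested, and 2 rises of 78 is well below the share that rose. No member changed by 2-fold or more. The median log2 fold change was -0.14 for the Mrpl genes and -0.14 for the Mrps genes, beside 0.01 for all genes tested. Of the 60 genes that did not pass, 41 lay below 0 and 19 above, between -0.38 and 0.38, and the 95% interval of 53 of them lay within a 1.5-fold change in either direction. The 3 GSK values lay wholly below the 3 DMSO values for 20 members and wholly above for 3, against 24.4% and 22.8% of all genes tested (47.2% in either direction). Mrpl11, Mrps35, Mrpl3, Mrps2 and Mrpl15 were wholly lower and Mrpl9 wholly higher without passing the test.

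**Figure D1:**
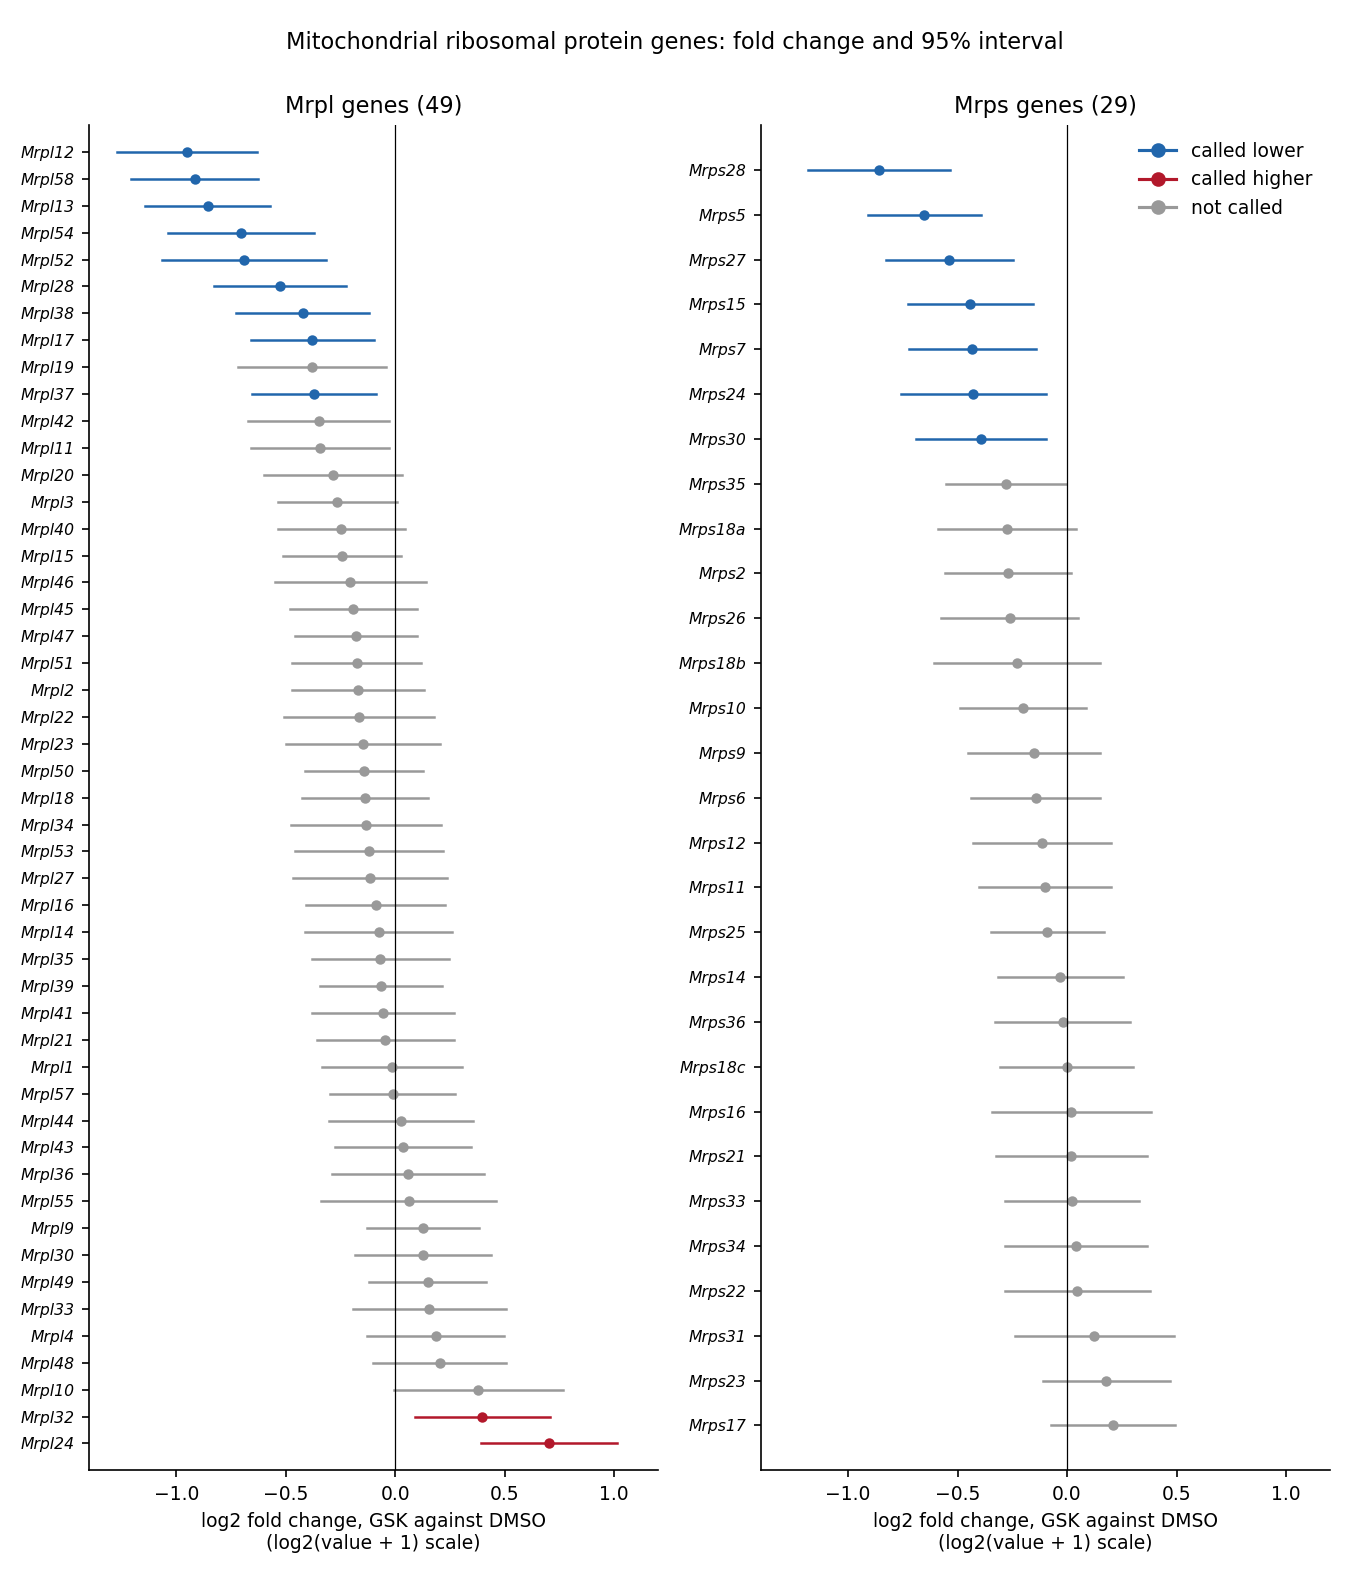
Log2 fold change of GSK against DMSO on the log2(value + 1) scale (horizontal axis) for the 49 Mrpl and 29 Mrps genes (rows), with bars for the 95% interval of the limma fit over 3 libraries a group. Called genes are coloured by direction, 16 lower and 2 higher, and most grey points lie left of 0.

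The large subunit holds the peptidyl transferase centre, the stalk that recruits translation factors and the tunnel through which the new protein leaves. Of its 49 Mrpl genes 9 fell and 2 rose. Mrpl12 encodes the stalk protein, which sits on the ribosome in several copies and has also been described as a partner of the mitochondrial RNA polymerase. It lies on chromosome 11 from 120484613 to 120489065 (GRCm38) and measured 646, 716 and 801 normalised reads in DMSO libraries 1 to 3 and 290.2, 389 and 452 in GSK libraries 1 to 3. The groups did not overlap, and the gene fell with a log2 fold change of -0.95 (standard error 0.15, limma adjusted p = 6.84e-05). Mrpl10, which encodes the protein that anchors the stalk, measured 348, 358 and 399 in DMSO and 333, 523 and 629 in GSK libraries, the last 2 above all controls, and did not pass (log2 fold change 0.38, limma adjusted p = 0.119). The long noncoding RNA gene Gm11574 overlaps Mrpl10 on the opposite strand and rose (log2 fold change 0.60). Without strand information the reads they share cannot be told apart. Mrpl11, at the base of the stalk, had 492, 464 and 544 in DMSO and 307, 453 and 436 in GSK libraries. Its groups did not overlap, but it did not pass either (log2 fold change -0.34, limma adjusted p = 0.0838).

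Mrpl58, also known as Ict1, encodes a peptidyl-tRNA hydrolase that has become a fixed part of the large subunit, where it belongs to the central protuberance. It lies on chromosome 11 from 115403752 to 115412674 and measured 799, 928 and 784 normalised reads in DMSO and 369.8, 479 and 487 in GSK libraries. Every GSK value was well below every DMSO value, and the gene fell with a log2 fold change of -0.92 (standard error 0.14, limma adjusted p = 3.16e-05), the smallest p of all members. Ict1os, a long noncoding RNA gene, overlaps it on the opposite strand and fell as well (log2 fold change -0.99). The Smart-seq2 protocol keeps no strand information, so reads from the shared stretch cannot be assigned to either gene. Of the 7 central protuberance genes listed, Mrpl38 was the only other one to fall. It measured 387, 456 and 498 in DMSO and 294, 327 and 379 in GSK libraries (log2 fold change -0.42, limma adjusted p = 0.0278). Mrpl18, Mrpl27, Mrpl40, Mrpl46 and Mrpl48 did not pass, with log2 fold changes from -0.25 for Mrpl40 to 0.20 for Mrpl48.

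Mrpl13 encodes a large subunit protein with a bacterial counterpart (chromosome 15, 55534094 to 55557748). It measured 886, 927 and 994 normalised reads in DMSO and 431, 535 and 595 in GSK libraries, with no overlap, and fell with a log2 fold change of -0.86 (standard error 0.14, limma adjusted p = 5.84e-05). Mtbp overlaps it on the opposite strand and fell as well (log2 fold change -1.13), so the reads where they overlap cannot be told apart. Mrpl54 and Mrpl52 encode proteins that bacterial ribosomes lack. Mrpl54 had 335, 461 and 454 in DMSO and 213, 254 and 298 in GSK libraries (log2 fold change -0.71, limma adjusted p = 0.00181). Mrpl52 had 523, 574 and 635 in DMSO and 249, 423 and 429 in GSK libraries (log2 fold change -0.69, limma adjusted p = 0.00549). In both the groups stayed apart, and GSK library 1 was the lowest of the 6. Mrpl28, the most abundant member per kilobase in DMSO, had 1054, 1125 and 1210.0 in DMSO and 618, 845 and 919 in GSK libraries (log2 fold change -0.53, limma adjusted p = 0.00736).

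At the rim of the exit tunnel 2 genes went opposite ways. Mrpl24 (chromosome 3, 87919506 to 87923672) measured 369, 357 and 327 normalised reads in DMSO and 451, 677 and 609 in GSK libraries, each GSK value above each DMSO value. It rose with a log2 fold change of 0.70 (standard error 0.15, limma adjusted p = 0.00104), the largest rise among the members. The protein coding gene Rrnad1 overlaps it on the opposite strand and rose too (log2 fold change 0.41), so without strand the reads of this pair cannot be told apart. Mrpl17 measured 686, 752 and 828 in DMSO and 517, 562 and 666 in GSK libraries and fell with a log2 fold change of -0.38 (limma adjusted p = 0.0324). The other tunnel genes, Mrpl22, Mrpl23, Mrpl45 and Mrpl47, did not pass, with log2 fold changes from -0.19 to -0.15. Mrpl32, whose product is trimmed by the mitochondrial m-AAA protease before it joins the ribosome, was the other member that rose, from 366, 323 and 359 in DMSO to 386, 449 and 560.3 in GSK libraries (log2 fold change 0.40, limma adjusted p = 0.0411). Mrpl37, which has no bacterial counterpart and is the last of the 9 falls by p, is named here after its values were seen. It had 529, 510.4 and 471 in DMSO and 368, 357 and 448 in GSK libraries (log2 fold change -0.37, limma adjusted p = 0.0385).

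The small subunit binds the messenger RNA and decodes it. Of the 29 genes named Mrps 7 fell and none rose. This count is by name, and as given below Mrps30, Mrps18a and Mrps36 are not proteins of the small subunit. Mrps28 (chromosome 3, 8802146 to 8923918) measured 251, 271 and 296 normalised reads in DMSO and 129, 157 and 164 in GSK libraries. All GSK values lay below all DMSO values, and it fell with a log2 fold change of -0.86 (standard error 0.16, limma adjusted p = 0.000219). Mrps5, which lies where the messenger RNA enters (chromosome 2, 127587222 to 127606829), had the tightest replicates of the called members, 700.0, 716 and 699.8 in DMSO and 430.1, 469.5 and 446 in GSK libraries. It fell with a log2 fold change of -0.65 (standard error 0.12, limma adjusted p = 0.000344). Mrps27, a pentatricopeptide repeat protein gene, had 451, 413 and 463 in DMSO and 269, 303 and 346 in GSK libraries (log2 fold change -0.54, limma adjusted p = 0.00497). The long noncoding RNA gene 6430562O15Rik overlaps it on the opposite strand and fell by a like amount (log2 fold change -0.51).

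The other calls among the Mrps genes had larger p-values. Mrps15 and Mrps7 encode ribosomal RNA binding proteins with bacterial counterparts. Mrps15 had 477, 491 and 564 in DMSO and 331, 386 and 411 in GSK libraries (log2 fold change -0.44, limma adjusted p = 0.0154). Mrps7 had 537, 638 and 584 in DMSO and 365, 466 and 477 in GSK libraries (log2 fold change -0.43, limma adjusted p = 0.0194). Neither gene's groups overlapped. Mrps24, a neighbour of the messenger RNA entry site, had 475, 533 and 595 in DMSO and 307, 408 and 491 in GSK libraries, and was the only called member whose groups overlapped (log2 fold change -0.43, limma adjusted p = 0.0399). Mrps30, which despite its name is found in the large subunit, had 491, 591 and 711 in DMSO and 448, 470.4 and 432 in GSK libraries (log2 fold change -0.39, limma adjusted p = 0.0364). The overlapping opposite-strand gene B430218F22Rik fell as well (log2 fold change -0.44).

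Several members with well known roles did not pass. Mrps12, the decoding centre protein whose bacterial counterpart carries streptomycin resistance mutations, had 285, 318 and 339 in DMSO and 240.1, 304 and 332 in GSK libraries (log2 fold change -0.11, 95% interval -0.43 to 0.20). Mrps18a, Mrps18b and Mrps18c descend from 1 bacterial protein, and Mrps18a is found in the large subunit. Their log2 fold changes were -0.27, -0.23 and -0.00, with 95% intervals of -0.59 to 0.04, -0.61 to 0.15 and -0.30 to 0.30. These intervals are for each gene alone, and a difference between the 3 relatives was not tested. On the opposite strand Rsph9 overlaps Mrps18a and rose (log2 fold change 0.99). The long noncoding RNA gene Gm16279 overlaps Mrps18b and rose from a mean of 498 in DMSO to 651 in GSK libraries (log2 fold change 0.38). Without strand the reads shared in these 2 overlaps cannot be told apart. Mrps36, since assigned to the 2-oxoglutarate dehydrogenase complex rather than to the ribosome, had 231, 246 and 221 in DMSO and 204, 232 and 255 in GSK libraries (log2 fold change -0.02). Mrpl19 and Mrpl42 came nearest to passing among the Mrpl genes (limma adjusted p = 0.0741 and 0.0832), and Mrps35 and Mrps2 among the Mrps genes (0.108 and 0.139).

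**Figure D2:**
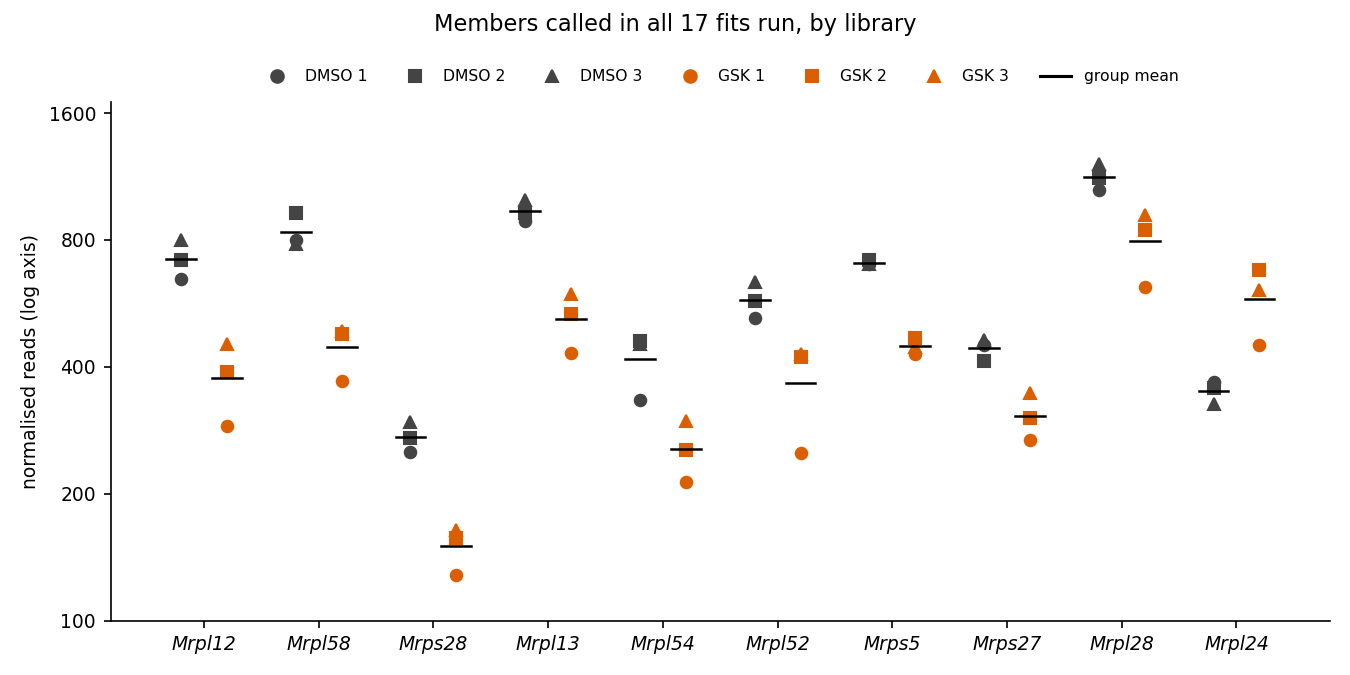
Normalised reads (vertical log axis) in each of the 6 libraries for the 10 members called in all 17 fits run, ordered by fold change, with a bar for the group mean. DMSO and GSK points do not overlap for any of them, and GSK library 1 (orange circles) is the lowest GSK point of each gene shown.

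How firmly the calls stand differed between genes. The falls of Mrpl12, Mrpl58, Mrpl13, Mrpl54, Mrpl52, Mrpl28, Mrps28, Mrps5 and Mrps27 and the rise of Mrpl24 passed in all 16 alternative fits, including those without any 1 library. The other 8 calls were lost without some library. Mrps15 did not pass without DMSO library 3 (limma adjusted p = 0.083), and Mrps7 not without DMSO 2 or 3 (at most 0.108). Mrpl38 and Mrpl17 did not pass without DMSO 2, DMSO 3 or GSK 2 (at most 0.129 and 0.138). Mrpl37 did not pass without any 1 of the DMSO libraries or GSK 2 (at most 0.184), Mrps30 not without DMSO 2, DMSO 3, GSK 2 or GSK 3 (at most 0.217), and Mrps24 not without DMSO 2, DMSO 3, GSK 1 or GSK 2 (at most 0.163). Among the fits that leave out 1 library, Mrpl32 passed only in that without GSK 1 (limma adjusted p at most 0.204 in the others). Testing all genes with no filter on low values also ended the calls of Mrpl17, Mrpl37, Mrps30 and Mrpl32, and scaling to equal library totals that of Mrpl32. In all, 10 members fell without DMSO library 2 and 9 without DMSO library 3, against 16 with all libraries. Without GSK library 2 the falls numbered 11.

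GSK library 1 stood apart for this set. It was the lowest of the 3 GSK libraries for 73 of the 78 members and the lowest of all 6 libraries for 68. Over all 15073 genes tested it was the lowest GSK library for 45.7% and the lowest of all 6 for 3405 genes. The set was not alone in this. GSK 1 was also the lowest of all 6 for 66 of 78 tested cytosolic ribosomal protein genes and 71 of 79 tested nuclear oxidative phosphorylation genes. On a scale of log2(value + 1) minus each gene's mean over the libraries, the member median was 0.04, 0.05 and 0.11 in DMSO libraries 1 to 3 and -0.35, 0.01 and 0.12 in GSK libraries 1 to 3. On this scale, with the deposited scaling, the other 2 GSK libraries lay next to the DMSO range. The same library was low for cytosolic ribosomal protein genes (median -0.35) and for nuclear oxidative phosphorylation genes (median -0.36), while the median of all genes tested there was -0.02. It also had the lowest erythroid sum of the GSK libraries, 184196, against 274566 and 272441 in GSK 2 and 3. Its microglia and macrophage, radial glial, intermediate progenitor and neuronal sums were the lowest of the GSK libraries too. Its pericyte and mesenchyme sum was the highest of them, 25578 against 17292 and 16387 in GSK 2 and 3, as was its endothelial sum. The part of these differences in the member values was not tested. Together the members took 0.44%, 0.434% and 0.459% of all normalised reads in DMSO and 0.339%, 0.374% and 0.41% in GSK libraries. By this share GSK 2 and 3 also lay below every DMSO library, so their place depends on the scaling. The ratio of summed Mrpl to summed Mrps reads was 2.02 to 2.04 in DMSO, 1.96 in GSK 1, and 2.07 and 2.06 in GSK 2 and 3.

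**Figure D3:**
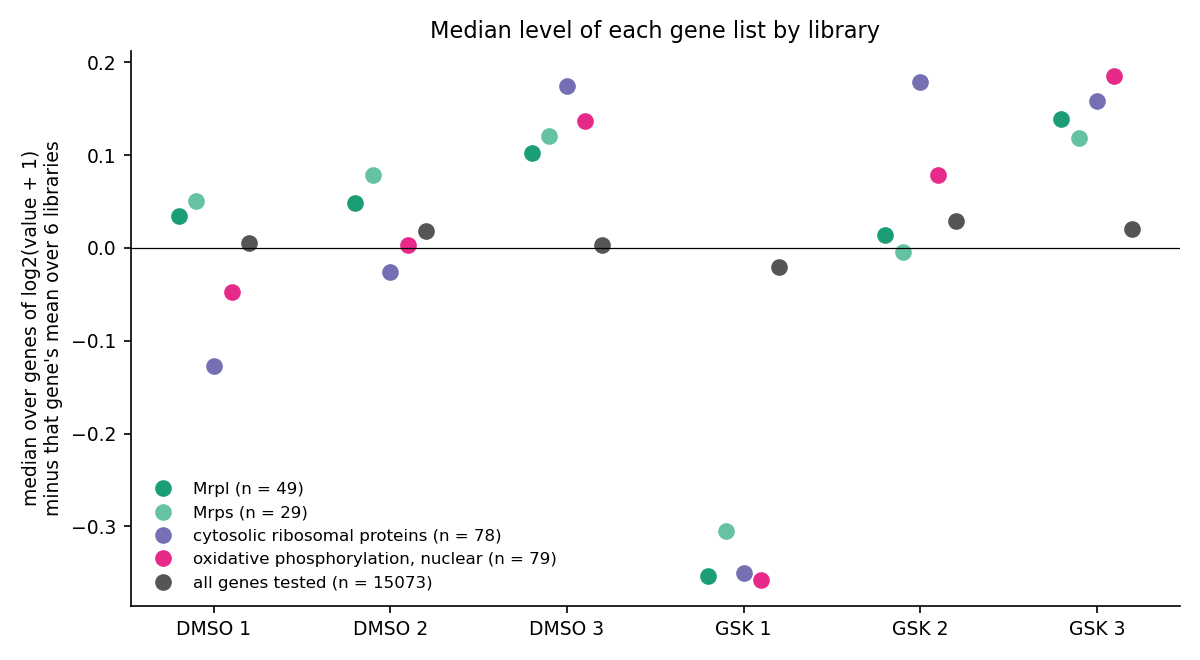
Median over genes of log2(value + 1) minus each gene's mean over the 6 libraries (vertical axis) for 5 gene lists in each library (horizontal axis). In GSK 1 the 2 mitochondrial ribosomal lists, the cytosolic ribosomal proteins and the nuclear oxidative phosphorylation genes lie between -0.36 and -0.31, and all genes tested at -0.02.

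Leaving out GSK library 1 took the median of the set to about 0 and kept most of the individual falls. The median log2 fold change over the members became 0.02, against -0.14 with all libraries and 0.03 for all genes tested without that library, with 36 members below 0 and 42 above. The sign differed from that of the full comparison for 21 members. Of the 16 falls 15 were still called, Mrps24 being the exception, and 7 members were then called higher. Besides Mrpl24 and Mrpl32 these were Mrpl10, Mrpl30, Mrpl33, Mrpl4 and Mrps17, with log2 fold changes of 0.64, 0.30, 0.38, 0.34 and 0.33 in that fit. Mrpl30 measured 543, 597 and 673 in DMSO and 518, 756 and 725 in GSK libraries. Mrps17 measured 591, 595 and 626 in DMSO and 589, 704 and 819 in GSK libraries. In both, GSK 1 lay below every DMSO value and the other GSK libraries above every one. The share called among all genes in that fit was 41.8%, 21.4% lower and 20.4% higher, and 22 of the 78 members were called. With all libraries these 5 genes did not pass.

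**Figure D4:**
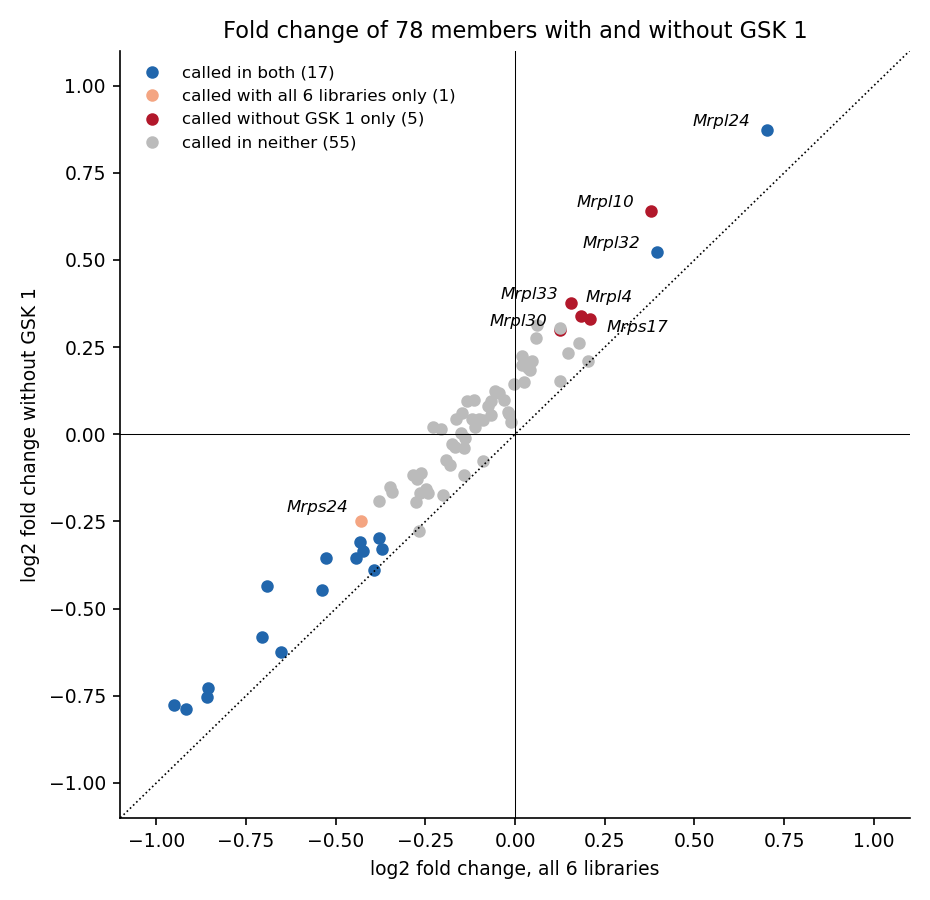
Log2 fold change of each of the 78 members with all 6 libraries (horizontal axis) and without GSK 1 (vertical axis), on the log2(value + 1) scale, with the dotted line marking equal values. For 77 of the 78 genes the point lies above the line, 17 genes were called in both fits and 5 only without GSK 1.

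Proteins shared with bacteria and proteins gained by mitochondria were set side by side, using assignments from general knowledge of the particle. Of 46 members with a bacterial counterpart 9 fell and 2 rose (median log2 fold change -0.14), and of 32 without one 7 fell and none rose (median -0.16). Both shares of called genes, 23.9% and 21.9%, lie below that of all genes tested. Of 5 proteins of the particle that carry other names, only Chchd1 passed, falling from 615, 685 and 770.4 in DMSO to 350.5, 546 and 473 in GSK libraries (log2 fold change -0.61, limma adjusted p = 0.00391). Gadd45gip1 and Ptcd3 did not pass although their groups did not overlap (log2 fold changes -0.35 and -0.28), nor did Aurkaip1 (-0.20) and Dap3 (0.16).

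Factors that build the ribosome or work with it passed in both directions, in shares below the 36.1% of all genes tested. Of 27 assembly factors 1 fell and 2 rose (11.1% called). Tfb1m, which encodes the methyltransferase of the small ribosomal RNA, fell with a log2 fold change of -0.60, from 91.4, 93.7 and 107 in DMSO to 56.9, 60.6 and 75.3 in GSK libraries. Nsun4, another ribosomal RNA methyltransferase gene, rose with 0.68, and Ngrn, a gene needed for the large ribosomal RNA, rose with 0.47. The call of Tfb1m was lost without DMSO 2, DMSO 3, GSK 1 or GSK 2 (limma adjusted p = 0.0538, 0.0824, 0.0521 and 0.0798), and that of Ngrn without DMSO 1, GSK 2 or GSK 3 (0.130, 0.0993 and 0.0604), whereas Nsun4 passed without any 1 library. Of 16 translation factors 2 fell and 3 rose (31.2% called). Lrpprc, whose product stabilises mitochondrial messenger RNAs, had the largest of these changes, from 870.0, 944 and 834 in DMSO to 592, 377 and 291 in GSK libraries (log2 fold change -1.13, limma adjusted p = 0.000832), and here GSK 1 was the highest GSK library. Tsfm, an elongation factor gene, fell with a log2 fold change of -0.55. The genes of the translational GTPases Guf1, Gfm2 and Mtif2 rose with 0.84, 0.49 and 0.43. Mtif2 did not pass without DMSO 2, DMSO 3 or GSK 2 (limma adjusted p = 0.101, 0.0868 and 0.118) and Gfm2 not without GSK 2 (0.0605). The 13 mitochondrial genes whose messenger RNA this ribosome translates had log2 fold changes from 0.33 to 1.04, of which 9 passed as higher and none as lower. Mitochondrial ribosomal RNA was not analysed here.

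Cytosolic ribosomal proteins, which build the ribosome outside mitochondria, and the nuclear-encoded respiratory subunits, which assemble with the products of the mitochondrial ribosome, were counted in the same fit. Of 78 tested cytosolic ribosomal protein genes 1 fell, Rpl10a, and 1 rose, Rpl10 (median log2 fold change -0.01). Of 79 tested nuclear subunit genes of oxidative phosphorylation 2 fell, Cox5a and Atp5g1, and 5 rose (median -0.06). The share called was 23.1% for the mitochondrial ribosomal genes, 2.56% for the cytosolic ones and 8.86% for oxidative phosphorylation, all below the 36.1% of all genes tested. These shares describe the lists, and the difference between them was not tested. Without GSK library 1 the cytosolic genes had 24 higher and 1 lower and the oxidative phosphorylation genes 13 higher and 2 lower, with medians of 0.16 and 0.11.

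Many of these genes start close to the start of a gene on the opposite strand. Of the 78, 32 (41%) had a protein coding gene on the opposite strand whose annotated start lies within 1000 bp of their own, against 15.5% of 13165 protein coding genes tested with coordinates (GENCODE vM21, GRCm38). In 14 of the 32 pairs the gene bodies overlap, so these are not back to back. This window and the pairs below were chosen after the files were seen. Of the 31 tested neighbours 6 fell, 2 rose and 23 did not pass, a share called below the 36.1% of all genes tested. Mrps11 and Mrpl46 are each other's neighbour, so that pair is counted from both sides. Among the 7 called members with a tested neighbour, Mrpl13 was the only one whose neighbour passed as well. The start of Mtbp, a gene named for its binding to Mdm2, lies 340 bp inside Mrpl13, and Mtbp fell from 277, 284 and 296 in DMSO to 138, 133 and 119.9 in GSK libraries.

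In 5 pairs the neighbour fell and the ribosomal gene did not pass, among them pairs with cell division genes. Ncapd2, a condensin gene whose start lies 100 bp from that of Mrpl51, measured 1297, 1399.7 and 1275 normalised reads in DMSO and 616, 592 and 433 in GSK libraries. Mrpl51 itself measured 558, 559 and 622 in DMSO and 416, 550.4 and 586 in GSK libraries. Ska3, a kinetochore gene 49 bp from Mrpl57, fell from 446, 400.4 and 396 to 179.8, 178 and 169, while Mrpl57 had 345, 346 and 389 in DMSO and 335, 346 and 392 in GSK libraries. Sars2, the mitochondrial seryl-tRNA synthetase gene 172 bp from Mrps12, fell from 241, 216 and 216 to 119, 112 and 137. The mean log2 ratio of the ribosomal gene to its neighbour was higher in GSK libraries by 1.11 for Mrpl51 and Ncapd2, by 1.22 for Mrpl57 and Ska3 and by 0.76 for Mrps12 and Sars2, and in these 3 pairs the ratios of the groups did not overlap. It was lower by 0.61 for Mrpl44 and Wdfy1 and by 0.60 for Mrpl2 and Klc4, again with no overlap. In the remaining 3 pairs, Mrpl13 with Mtbp, Mrpl27 with Eme1 and Mrps18c with Helq, the ratios overlapped. The gene bodies overlap for Mrpl44 with Wdfy1, Mrpl27 with Eme1 and Mrpl13 with Mtbp, so without strand the reads they share cannot be told apart. The 8 pairs were picked because the neighbour passed, so the ratios are given without a test.

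**Figure D5:**
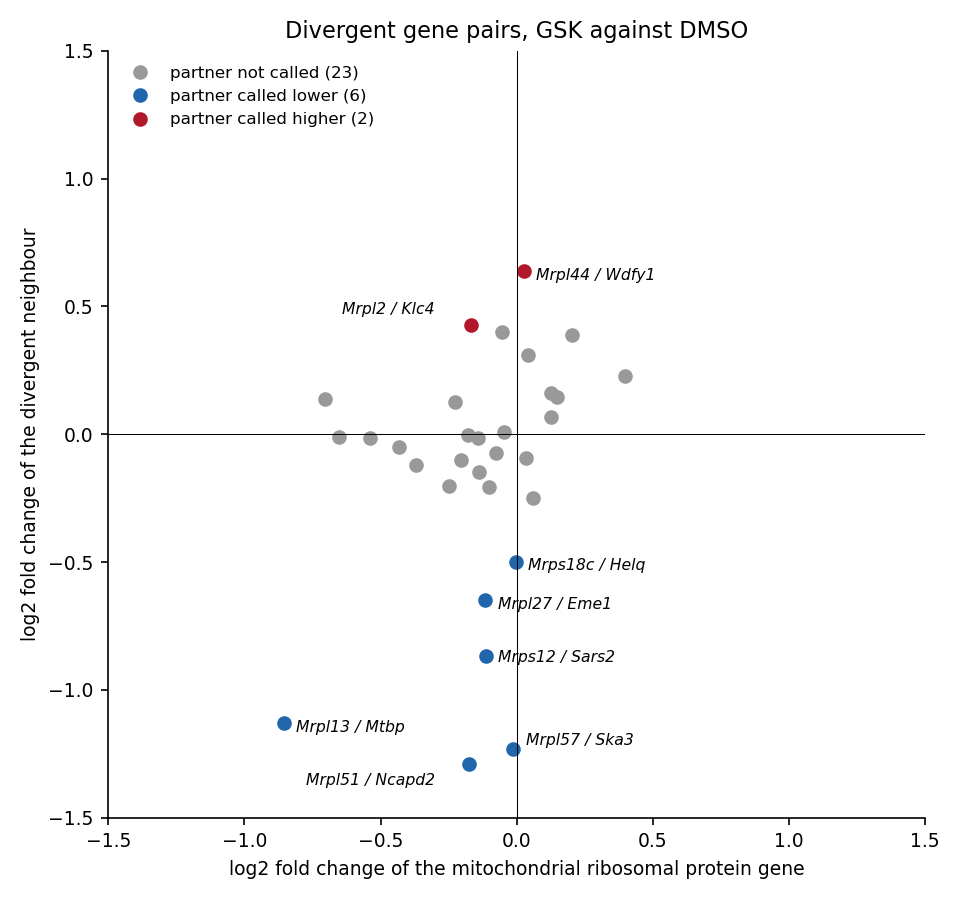
Log2 fold change of each member (horizontal axis) against that of its opposite-strand neighbour (vertical axis) for the 31 pairs with a tested neighbour, GSK against DMSO on the log2(value + 1) scale. The figure calls all of these neighbours divergent, although some pairs have overlapping gene bodies. Labelled pairs are the 8 whose neighbour was called, and apart from Mrpl13 with Mtbp they lie close to 0 on the horizontal axis.

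Promoter sequence was available from RefSeq (GRCm38.p6, 250 bases before to 50 after the annotated start) for 69 of the 78 genes, in 75 windows. The entries missing among the called genes were Mrpl13, Mrpl38, Mrpl54 and Mrps28. Both strands were searched for 4 motifs, chosen after the files were seen, that have been described at promoters of mitochondrial or growth genes: NRF1 as GCGCA and GCGC with 1 base of any kind between them, ETS factors as CCGGAAG, YY1 as AANATGGCG and the E-box as CACGTG. The end of the ETS motif can overlap the start of the YY1 motif, which happened in no member. The ETS motif was found in 34.7% of the member windows against 16.4% of the 13454 windows of protein coding genes tested, NRF1 in 17.3% against 9.43% and YY1 in 14.7% against 4.62%. The E-box, the motif of MYC, was found in 9.33% against 9.53%. The member windows count 1 E-box of Mrpl2 in each of its 3 shifted windows. By gene, the E-box was found in 7.25% of the members with a window and in 11.4% of the protein coding genes tested. The median GC content of these windows was 58.7% for the members and 60.7% for the protein coding genes tested. Over all 32851 windows of the table the shares were 8.86% for ETS, 4.60% for NRF1, 2.38% for YY1 and 7.15% for the E-box. YY1 matches lay in 5 of the 12 windows of genes that fell, those of Mrpl58, Mrps27, Mrpl37, Mrps24 and Mrps30, and in 6 of the 61 windows of genes that did not pass. The other motifs had like shares in these 2 sets of windows, 33.3% and 36.1% for ETS, 16.7% and 16.4% for NRF1, and 8.33% and 9.84% for the E-box. By gene the E-box shares were 8.33% and 7.27%. The calls of Mrpl37, Mrps24 and Mrps30 were each lost without some libraries, and the genes without an entry could not be searched. The YY1 difference, 1 of 4 looked at, was not tested. A match is a description of the letters and not of a bound site.

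The windows of 5 genes called in all fits are shown 5′ to 3′ on the strand of the gene, with matched motifs in capitals. Mrpl58 (chr11:115403502-115403801, plus strand) and Mrps27 (chr13:99344536-99344835, plus strand) carry ETS and YY1 matches, Mrpl12 (chr11:120484387-120484686, plus strand) an NRF1 match and Mrpl52 (chr14:54426659-54426958, plus strand) ETS matches. Mrpl24 (chr3:87919294-87919593, plus strand) holds none of the 4 motifs in this window. The windows of Mrpl28 and Mrps5, which fell in all fits and are not shown, hold none of them either.
Mrpl58: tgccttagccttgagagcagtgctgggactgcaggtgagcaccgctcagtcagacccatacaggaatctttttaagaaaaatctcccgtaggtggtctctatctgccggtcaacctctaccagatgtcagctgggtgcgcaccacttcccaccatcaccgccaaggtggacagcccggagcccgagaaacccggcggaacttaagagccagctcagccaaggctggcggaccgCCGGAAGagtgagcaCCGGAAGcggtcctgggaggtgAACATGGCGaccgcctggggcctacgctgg
Mrps27: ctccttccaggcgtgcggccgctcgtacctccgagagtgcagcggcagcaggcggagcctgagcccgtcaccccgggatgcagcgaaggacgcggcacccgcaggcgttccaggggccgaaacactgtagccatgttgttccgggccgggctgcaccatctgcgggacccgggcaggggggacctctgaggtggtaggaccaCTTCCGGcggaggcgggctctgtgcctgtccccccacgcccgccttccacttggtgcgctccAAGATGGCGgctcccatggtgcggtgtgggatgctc
Mrpl12: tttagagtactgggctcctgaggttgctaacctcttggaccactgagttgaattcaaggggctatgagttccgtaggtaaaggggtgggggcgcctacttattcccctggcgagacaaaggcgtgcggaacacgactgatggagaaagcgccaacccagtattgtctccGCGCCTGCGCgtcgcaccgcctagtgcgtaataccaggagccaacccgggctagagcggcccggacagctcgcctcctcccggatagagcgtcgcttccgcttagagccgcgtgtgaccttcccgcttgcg
Mrpl52: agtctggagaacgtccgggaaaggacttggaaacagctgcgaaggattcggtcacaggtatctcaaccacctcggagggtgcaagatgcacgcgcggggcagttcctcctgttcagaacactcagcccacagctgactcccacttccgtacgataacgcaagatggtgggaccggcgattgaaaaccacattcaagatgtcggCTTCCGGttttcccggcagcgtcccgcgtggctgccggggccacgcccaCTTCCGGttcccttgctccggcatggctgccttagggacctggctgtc
Mrpl24: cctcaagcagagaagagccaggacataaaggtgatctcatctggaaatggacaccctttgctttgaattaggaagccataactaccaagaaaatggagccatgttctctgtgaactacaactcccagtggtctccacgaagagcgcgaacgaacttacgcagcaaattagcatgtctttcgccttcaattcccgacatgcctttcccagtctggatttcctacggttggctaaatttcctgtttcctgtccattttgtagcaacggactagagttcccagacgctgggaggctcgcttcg
The NRF1 match of Mrpl12 starts 81 bases before the RefSeq start, and the YY1 matches of Mrpl58 and Mrps27 start at bases 21 and 15, counted from 1 at the start. The RefSeq window of Mrpl32, the weaker of the 2 rises, also holds an NRF1 match, so an NRF1 match was seen at a gene that fell and at one that rose.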

How the data were processed

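Full-length RNA libraries (Smart-seq2) of sorted cells were compared between 3 DMSO and 3 GSK libraries. The values are a signal deposited by the authors, read counts per gene divided by a size factor for each library. STAR and DESeq and the builds GRCm38 and mm10 are named, per the submitters' processing notes, with no versions; for the counter and its strand setting, the sources used here give nothing. All values (100%) were whole multiples, within 0.01, of what 1 read is worth in their library, so reads could be recovered.

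The table repeats each gene on its transcript rows, and 1 row per gene identifier was kept. Genes with a mean of at least 10 (15073) were tested with limma 3.58.1 in R 4.3.3 (trend and robust options) on log2(value + 1), with Benjamini-Hochberg adjustment at 0.05. Fold changes on this scale understate changes of low genes. The fit was tested on simulated data. Reads recovered were also tested with edgeR 4.0.16, which called 5535 genes against 5446 with limma, and with DESeq2 1.42.0, which called 5129.

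The members and lists were chosen with earlier results of these data known. Named genes were a set of members with known roles, up to 8 calls by p in each direction and subunit, the 2 nearest to passing, and the highest and lowest per length.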

Additional observations from a re-analysis of the deposited data

How the results depend on the processing

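The 16 alternative fits, and an adjusted p below 0.01 in place of 0.05, reversed the direction of no called member. Over the 18 called members, 267 outcomes stayed past the threshold and 39 did not. Of the Mrpl genes 1 was higher with no filter on low values, with equal library totals and at an adjusted p below 0.01, against 2 in the reported fit, and 14 were lower with equal totals, a scaling that moved the median of all genes to -0.06. With those totals 38.6% of calls over all genes were higher, against 47.1%. At an adjusted p below 0.01, 3581 of the 5446 genes and 3 of the 7 Mrps falls remained as counts. Leaving out each library in turn gave 4083 to 6298 genes called, 6 to 13 Mrpl genes lower and 1 to 6 higher, and 3 to 8 Mrps genes lower and 0 to 1 higher. The medians ran from -0.24 to 0.04 (Mrpl) and from -0.22 to 0.0033 (Mrps). They turned positive only without GSK library 1, at 0.040 and 0.0033, and the cause was not tested. The summed levels, as log2 ratios of GSK to DMSO, ran from -0.27 to -0.04 (Mrpl) and from -0.26 to -0.07 (Mrps). Deviations of same-numbered libraries correlated at 0.0131, -0.0236 and 0.0529, and DMSO 2 correlated best with GSK 1. With 3 libraries a group this cannot decide whether the replicate numbers pair the libraries. With the replicate block 5642 genes were called, among them 9 Mrpl genes lower and 3 higher, Mrpl10 being added, and 7 Mrps genes lower. With 3 libraries a group, the median 95% interval of a member reached 0.31 to either side on the log2 scale.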
